A study of Mus musculus with 9 samples.

Results

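The miR-23, miR-27 and miR-24 clusters were followed in the milk fat of lactating mice through 8 mature miRNA names, out of 1915 names in the count table. The names were given as a list, with no threshold on their values: mmu-miR-23a-3p, mmu-miR-27a-3p, mmu-miR-27a-5p and mmu-miR-24-2-5p come from the 23a cluster, mmu-miR-23b-3p, mmu-miR-27b-3p and mmu-miR-27b-5p from the 23b cluster, and mmu-miR-24-3p from both. All 8 were detected in every library, and all 8 passed the filter on low counts. The material was washed milk fat from 9 ICR (CD1) dams, an outbred stock, nursing a first litter and milked on lactation day 10, and 1 small RNA library was read per dam. From 4 weeks of age, for 4 weeks before mating and then through pregnancy and lactation, 5 dams were fed a control diet that drew 10% of its energy from fat, and 4 were fed a high-fat diet that drew 60%. The control diet held 3.85 kcal per g and the high-fat diet 5.24, and sucrose gave 7% of energy in each. No genotype or drug differs between the groups. Before mating, each dam shared a cage with another dam of its diet, and the cage mates are not known here.

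MicroRNAs are short RNAs that guide silencing proteins to messenger RNAs, mainly by pairing through the seed near their 5′ end. The 23a and 23b clusters are paralogous loci, and each is transcribed as a single primary transcript that is cut into a miR-23, a miR-27 and a miR-24 hairpin. Each hairpin can give a product from its 5′ arm (5p) and one from its 3′ arm (3p), of which one usually accumulates. miR-27 is known as a repressor of fat-cell formation and of genes of lipid metabolism, miR-23 as a regulator of glutaminase and of growth signalling, and miR-24 as a regulator of the cell cycle.

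The mature sequences are shown because the seed groups the members and because 2 of them are almost the same molecule. They are RefSeq sequences on the GRCm38.p6 build, where 7 of the 8 names were matched, and mmu-miR-23b-3p is given by name only. Capitals mark the seed, bases 2 to 8 from the 5′ end.
mmu-miR-23a-3p: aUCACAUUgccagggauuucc
mmu-miR-27a-3p: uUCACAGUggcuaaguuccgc
mmu-miR-27b-3p: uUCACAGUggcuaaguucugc
mmu-miR-24-3p: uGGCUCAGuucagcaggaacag
mmu-miR-24-2-5p: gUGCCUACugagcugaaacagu
mmu-miR-27a-5p: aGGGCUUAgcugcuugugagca
mmu-miR-27b-5p: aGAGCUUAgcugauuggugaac

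Among the matched names, mmu-miR-27a-3p and mmu-miR-27b-3p share a seed, and no other mature mouse miRNA of the sequence table has it. Their first 18 bases are identical, and they differ by C19U, with positions counted from 1 at the 5′ end and the base of mmu-miR-27a-3p given first. A read that stops before that base cannot be assigned to one of them, and the rule by which such reads were counted is not known here, so their split is uncertain. The same holds for reads that could fit both mmu-miR-23a-3p and mmu-miR-23b-3p, names of one family. The opposite arms are less alike, since mmu-miR-27a-5p and mmu-miR-27b-5p differ at 8 of 22 positions and G3A falls in the seed. mmu-miR-24-3p has the same sequence in both of its hairpins, so its counts cannot be divided between the clusters. Its seed also occurs in mmu-miR-5124b, mmu-miR-6369, mmu-miR-6410 and mmu-miR-6413, and each of these was at 0 counts in all 9 libraries. The 5′ arms of the miR-24 hairpins do differ: mmu-miR-24-2-5p shares its first 16 bases with mmu-miR-24-1-5p, the 5p product of the other locus.

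On GRCm38 the 23a cluster lies on the plus strand of chromosome 8, with Mir23a at 84208518 to 84208592, Mir27a at 84208672 to 84208758 and Mir24-2 at 84208815 to 84208921. The 3 hairpins span 404 bases. Other miRNA genes aside, Mir23a and Mir27a overlap no other annotated gene, and Mir24-2 overlaps an exon of the long noncoding RNA gene Gm26532. Products of Mir3074-2 lie within Mir24-2 on the opposite strand, and a product of Mir3074-1 lies likewise within Mir24-1 of the 23b cluster. The 23b cluster lies on the plus strand of chromosome 13, with Mir23b at 63300484 to 63300557, Mir27b at 63300712 to 63300784 and Mir24-1 at 63301208 to 63301275, a span of 792 bases. It sits inside the protein-coding gene 2010111I01Rik on the same strand, with Mir23b in an intron and the other hairpins overlapping an exon of at least 1 transcript, and inside an intron of Fancc on the opposite strand. The Mir27a hairpin is shown with both of its arms in capitals, 5p first because the levels of its arms are compared.
Mir27a hairpin: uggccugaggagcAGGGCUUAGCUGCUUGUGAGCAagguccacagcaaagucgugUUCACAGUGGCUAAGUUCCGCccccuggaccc

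**Figure D1:**
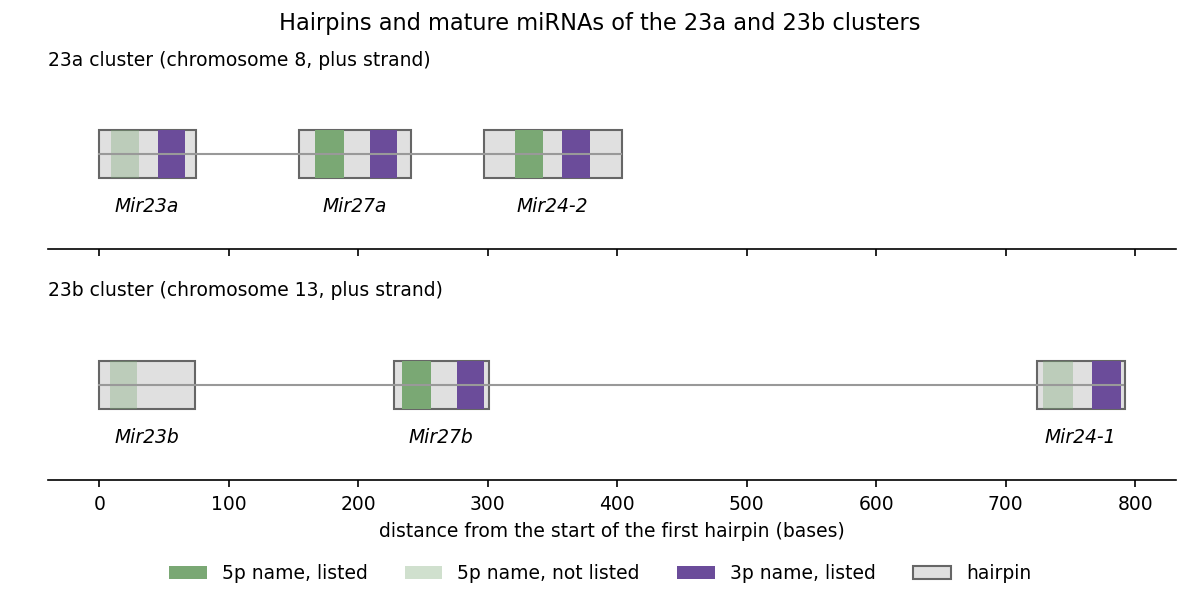
Positions of the hairpins (grey) and of the mature products found in the sequence table (5p green, 3p purple; pale green marks 5p names outside the 8 members) in the 23a cluster (top) and 23b cluster (bottom). The x axis is the distance in bases from the start of the first hairpin; the 23a cluster spans 404 bases and the 23b cluster 792.

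Total counts per library ran from 837817 to 3897109. Listed marker miRNAs of secretory epithelium held 46.1% to 51.8% of counts in every library, with 8 of 8 names present. The largest parts were mmu-miR-146b-5p (20.5%), mmu-miR-148a-3p (13.3%) and mmu-miR-30a-5p (6.67%; means, n = 9). Whether these names come from epithelium alone was not tested. The 6 leukocyte markers, all present in every library, held 0.0617% to 0.103% of counts in control libraries, but high-fat library 1 had 1.22% and library 3 had 0.351%, and libraries 2 and 4 of that diet had 0.0280% and 0.0566%. The differences that involve a miR-23 name are therefore also given without high-fat libraries 1 and 3. Red cell markers held at most 0.0650%, endothelial markers at most 0.00291% and striated muscle markers at most 0.00910% of any library, and stroma markers 1.04% to 2.59%. In all of these values, fewer cells of a type and less RNA per cell cannot be told apart.

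The miR-27 3p products were the most abundant members. Levels are given as CPM, the counts of a name per 1000000 counts of its library, and each is a mean ± SD over libraries. mmu-miR-27b-3p, the 3p product of the 23b cluster's miR-27 hairpin, was at 18819 ± 2178 CPM (n = 9) and ranked 14 of 1915 names by mean level. mmu-miR-27a-3p, its counterpart in the 23a cluster, was at 13690 ± 1110 CPM (n = 9) and ranked 16. Together they held 74.7% ± 1.71 (SD, n = 9) of the counts of the 8 members. This takes the higher of the 2 near-equal rows of mmu-miR-24-3p. With those rows summed, the miR-27 share would be lower and the level of mmu-miR-24-3p higher. mmu-miR-24-3p ranked 32 with 5119 ± 809 CPM, mmu-miR-23b-3p 40 with 2923 ± 619 CPM and mmu-miR-23a-3p 42 with 2739 ± 631 CPM. The 3 listed 5p products were far lower, and together held 0.537% ± 0.130 (SD, n = 9) of the members' counts. mmu-miR-24-2-5p was at 179 ± 45.4 CPM, rank 114, mmu-miR-27a-5p at 28.5 ± 18.0 CPM, rank 205, and mmu-miR-27b-5p at 24.6 ± 7.53 CPM, rank 217.

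The order of the levels was tested between neighbours with a two-sided exact sign-flip permutation test of the log2 ratio over the 9 libraries, with Benjamini-Hochberg adjustment across 7 pairs. The order came from the mean levels of these same libraries, so the test shows only how steady it was across them. Of the pairs, 5 had the same order in 9 of 9 libraries, each with an exact p of 0.00391, the smallest possible with 9 libraries, and an adjusted p of 0.00547. By geometric mean, mmu-miR-27b-3p was 1.37-fold above mmu-miR-27a-3p, with the split of reads that fit both names uncertain. mmu-miR-27a-3p was 2.70-fold above mmu-miR-24-3p. mmu-miR-24-3p was in turn 1.77-fold above mmu-miR-23b-3p. The level of mmu-miR-24-3p takes the higher of its 2 near-equal rows; with the rows summed, the mean log2 ratio of mmu-miR-27a-3p to it was 0.43 instead of 1.43 and that of it to mmu-miR-23b-3p 1.82 instead of 0.82, in the same order. The gap from the lowest 3p member to the highest 5p member was larger, 15.4-fold between mmu-miR-23a-3p and mmu-miR-24-2-5p, and mmu-miR-24-2-5p stood 7.60-fold above mmu-miR-27a-5p. The other pairs did not differ beyond their spread. mmu-miR-23b-3p exceeded mmu-miR-23a-3p 1.07-fold and in 7 of 9 libraries (exact sign-flip p = 0.262, adjusted p = 0.305). mmu-miR-27a-5p was 0.958 times mmu-miR-27b-5p by geometric mean and was higher in 5 of 9 libraries (exact sign-flip p = 0.836).

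**Figure D2:**
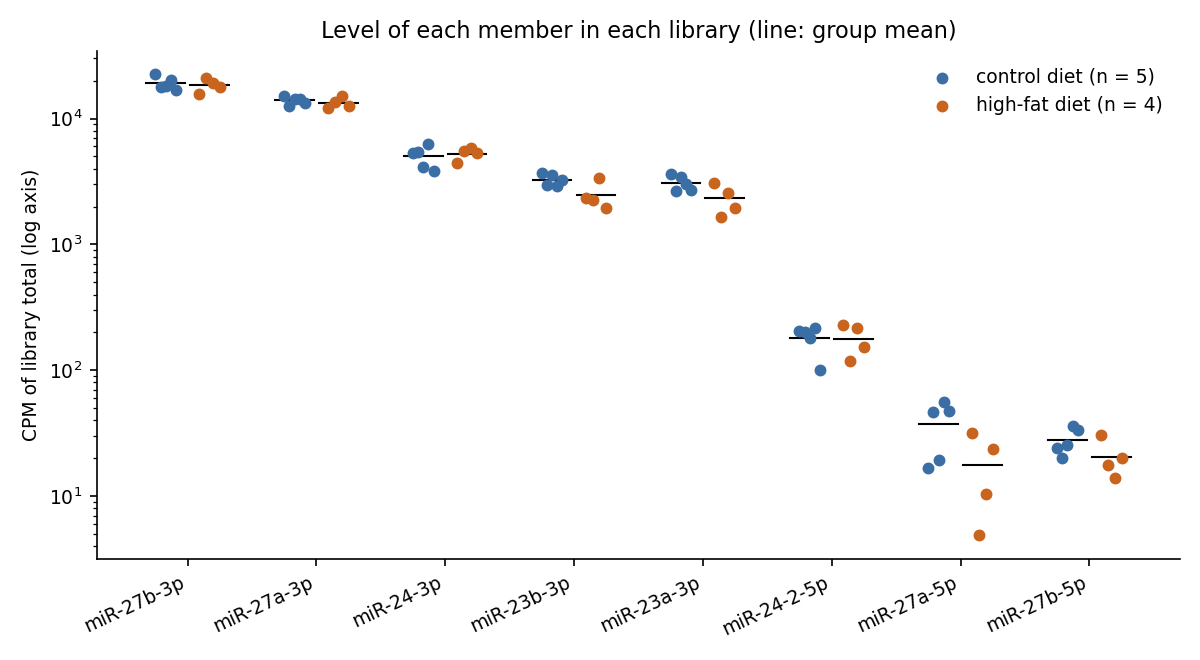
Level of each of the 8 members in each library, in CPM of the library total on a log axis, in order of mean level; blue points are control libraries, orange points high-fat libraries and black lines group means. The 3p products lie between 1665 and 22661 CPM, all above the 5p products, which lie between 4.88 and 227 CPM.

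The members also differed in how far dams spread around the group mean. The coefficient of variation of mmu-miR-27a-3p was 6.96% among control libraries and 9.96% among high-fat libraries, and that of mmu-miR-27b-3p was 12.2% in both. For mmu-miR-23a-3p it was 13.6% and 27.5%, and for mmu-miR-23b-3p 10.6% and 25.4%, so the miR-23 products had a larger spread in the high-fat group. For mmu-miR-24-3p the high-fat group had the smaller spread, 11.6% against 19.9%. Counting error alone would give at most 1.57% for any of these 3p names. mmu-miR-24-2-5p varied by 25.5% and 29.1%, with 6.87% and 4.95% from counting. mmu-miR-27b-5p varied by 24.04% and 34.6%, with 16.2% and 15.1% from counting. mmu-miR-27a-5p varied most, by 48.2% and 69.3%, against 14.7% and 18.4% from counting. Differences in spread between diets were not tested.

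Whether the maternal diet altered the members was asked first of their summed level. The 8 members held 4.47% ± 0.425 (SD, n = 5) of counts in control libraries, from 4.01% to 5.07%, and 4.21% ± 0.380 (SD, n = 4) in high-fat libraries, from 3.80% to 4.63%. The groups overlapped, and the difference of -0.260 percentage points was within the spread between dams (two-sided exact permutation p = 0.365). With 5 against 4 libraries this test cannot go below 0.00794.

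Single names were compared with limma-voom, a linear model of log2 CPM with weights for the precision of each count, on library sizes scaled by a trimmed mean and over all 312 tested names. The fold change of a name is its high-fat level over its control level, on that scaled log2 CPM scale, and a call is an adjusted p below 0.05 by the Benjamini-Hochberg method. No member was called, and none of the 312 names was (0% of names called). At an unadjusted limma p below 0.05, 2 of the 8 members passed, mmu-miR-23a-3p and mmu-miR-23b-3p, against 10.3% of all tested names. Of the 8 log2 fold changes 7 were below 0 and 1 above, with a median of -0.25, and over all tested names 154 were below and 158 above with a median of 0.00. Those of mmu-miR-27a-3p, mmu-miR-27b-3p and mmu-miR-24-2-5p were near 0, and each turned positive in a fit with a single library left out. The members share hairpins and may share reads, so these 8 values are not independent and their common direction was not tested. No member separated the diets without overlap. This was rare over all tested names too: 1.6% (5 of 312) were lower in every high-fat library than in every control library and 8 of 312 were higher. A count of 0 among 8 members therefore does not set them apart.

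The miR-27 and miR-24 3p products were at like levels under both diets. mmu-miR-27a-3p was at 15147, 12646, 14306, 14325 and 13339 CPM in libraries 1 to 5 of the control diet and at 12098, 13504, 15159 and 12685 CPM in libraries 1 to 4 of the high-fat diet. The lowest and the highest of the 9 values were both in high-fat libraries. The log2 fold change of mmu-miR-27a-3p was -0.07 ± 0.12 (SE; 95% confidence interval -0.34 to 0.20; limma adjusted p = 0.848). mmu-miR-27b-3p was at 22661, 17789, 18208, 20209 and 16775 CPM in the control libraries and at 15776, 21110, 19068 and 17777 CPM in the high-fat libraries. The ranges largely coincided, and the log2 fold change of mmu-miR-27b-3p was -0.05 ± 0.14 (SE; -0.37 to 0.26; limma adjusted p = 0.885). mmu-miR-24-3p, the product shared by both clusters, was at 5340, 5400, 4126, 6279 and 3866 CPM in the control libraries and at 4395, 5498, 5812 and 5353 CPM in the high-fat libraries. All high-fat values lay inside the control range, and the log2 fold change of mmu-miR-24-3p was 0.09 ± 0.18 (SE; -0.31 to 0.49; limma adjusted p = 0.865). These intervals leave room for differences of up to 1.15-fold higher for mmu-miR-27a-3p, 1.20-fold for mmu-miR-27b-3p and 1.41-fold for mmu-miR-24-3p, and down to 0.791, 0.775 and 0.804 of the control level.

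The miR-23 3p products had lower values on the high-fat diet in most libraries, without reaching a call. mmu-miR-23a-3p was at 3594, 2663, 3404, 3027 and 2684 CPM in libraries 1 to 5 of the control diet and at 3084, 1665, 2584 and 1948 CPM in libraries 1 to 4 of the high-fat diet. High-fat library 1 lay among the controls, and the other 3 were below every control library. On the scaled log2 CPM scale the fold change of mmu-miR-23a-3p was -0.45 ± 0.18 (SE; -0.84 to -0.06), which is 0.733 of the control level (limma adjusted p = 0.436). mmu-miR-23b-3p was at 3703, 2951, 3534, 2913 and 3276 CPM in the control libraries and at 2343, 2248, 3394 and 1949 CPM in the high-fat libraries. Here high-fat library 3 lay among the controls, and the other 3 were below every control library. The log2 fold change of mmu-miR-23b-3p was -0.43 ± 0.17 (SE; -0.81 to -0.05), or 0.743 of the control level (limma adjusted p = 0.436). The exception for each name was one of the libraries high in leukocyte markers, and the part of those markers in the result was not tested. Without high-fat libraries 1 and 3 the log2 fold changes were -0.68 for mmu-miR-23a-3p (limma adjusted p = 0.146) and -0.55 for mmu-miR-23b-3p (limma adjusted p = 0.204). The exception for each name is then left out, so the larger differences follow from that choice and are a description only. With each library left out in turn, they ran from -0.56 to -0.39 for mmu-miR-23a-3p, the smallest difference being the one that omits high-fat library 2. For mmu-miR-23b-3p they ran from -0.64, omitting high-fat library 3 (limma adjusted p = 0.120), to -0.36, omitting high-fat library 4. Neither name was called in any of these fits.

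The 5p products were read at lower depth. mmu-miR-27a-5p, from the arm opposite mmu-miR-27a-3p, had 28, 58, 53, 89 and 40 counts in control libraries 1 to 5, or 16.6, 46.6, 19.3, 55.6 and 47.7 CPM. It had 74, 19, 21 and 45 counts in libraries 1 to 4 of the high-fat diet, or 31.7, 4.88, 10.4 and 23.6 CPM. The 95% Wilson interval of the lowest value, in high-fat library 2, was 3.12 to 7.62 CPM and did not reach any control value, while high-fat libraries 1 and 4 lay inside the control range. The log2 fold change of mmu-miR-27a-5p was -1.23 ± 0.60 (SE; -2.56 to 0.10; limma adjusted p = 0.534), and it was -0.71 without high-fat library 2. mmu-miR-27b-5p was at 27.9 ± 6.71 CPM (SD, n = 5) in control libraries and 20.5 ± 7.08 CPM (SD, n = 4) in high-fat libraries. Its counts ran from 25 to 71 in all, its groups overlapped, and its log2 fold change was -0.45 ± 0.28 (SE; -1.08 to 0.17; limma adjusted p = 0.650). mmu-miR-24-2-5p was at 180 ± 45.9 CPM (SD, n = 5) and 178 ± 51.9 CPM (SD, n = 4), with a log2 fold change of -0.06 ± 0.26 (SE; -0.63 to 0.50; limma adjusted p = 0.894). Its lowest value, 101 CPM, was in control library 5, the smallest library, and its highest, 227 CPM, in high-fat library 1.

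**Figure D3:**
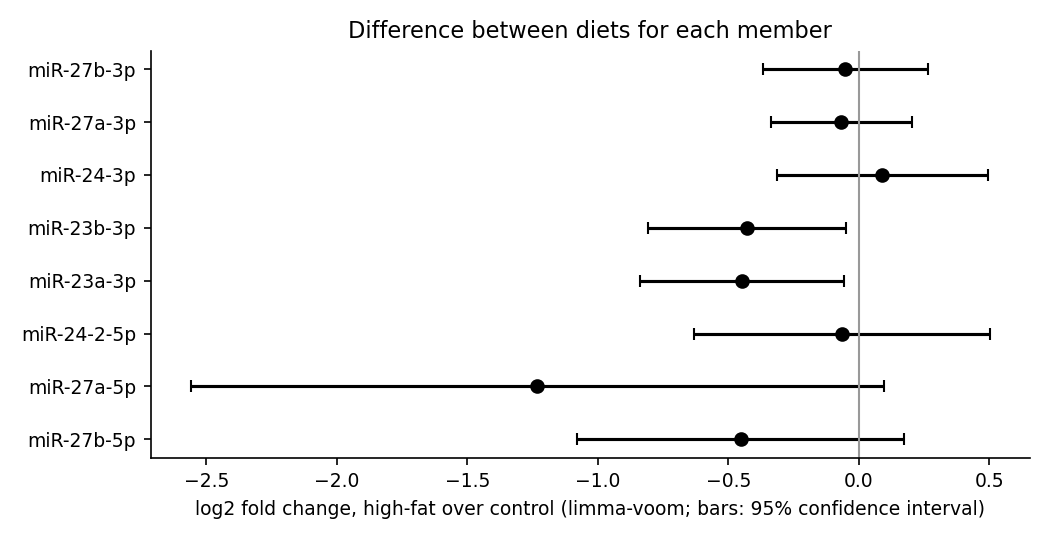
Log2 fold change of each member, high-fat over control, from limma-voom on scaled log2 CPM (points), with 95% confidence intervals (bars). The intervals of mmu-miR-23a-3p and mmu-miR-23b-3p lie below 0, that of mmu-miR-27a-5p is the widest at -2.56 to 0.10, and no adjusted p is below 0.05.

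Ratios between members within a library need no scaling to library totals, and 9 of them were compared between diets with two-sided exact permutation tests, with Benjamini-Hochberg adjustment across the 9. None was past the threshold. With 5 against 4 libraries the smallest possible exact permutation p is 0.00794. After this adjustment a single ratio at that limit could not pass alone, however far apart the diets lay. The balance between the clusters was the same to within its spread: the names that belong to the 23b cluster alone, without miR-24 products, outnumbered their 23a counterparts 1.31-fold in control libraries and 1.33-fold in high-fat libraries. As log2 ratios these were 0.39 ± 0.08 (SD, n = 5) and 0.41 ± 0.16 (SD, n = 4), and they did not differ beyond their spread (exact permutation p = 0.833, adjusted p = 0.944). Without high-fat libraries 1 and 3 the difference of log2 ratios was 0.14 instead of 0.02 (exact permutation p = 0.190). The ratio of mmu-miR-27b-3p to mmu-miR-27a-3p was 1.37 and 1.38 (exact permutation p = 0.881, adjusted p = 0.944), and it stayed between 1.26 and 1.56 in all 9 libraries.

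The ratio of mmu-miR-23b-3p to mmu-miR-23a-3p had like means but a wider range among high-fat libraries. Its log2 mean was 0.10 ± 0.13 (SD, n = 5) in control libraries and 0.11 ± 0.39 (SD, n = 4) in high-fat libraries (exact permutation p = 0.944, adjusted p = 0.944). Control libraries ran from 0.962 to 1.22. High-fat libraries 1 to 4 were at 0.760, 1.35, 1.31 and 1.00, so library 1 was below and libraries 2 and 3 were above every control library. Without high-fat libraries 1 and 3 the difference of log2 ratios was 0.12 instead of 0.01 (exact permutation p = 0.524). Leukocyte markers held 1.22%, 0.0280%, 0.351% and 0.0566% of these libraries, and their part in the ratio was not tested. Reads that fit both names could have been split between them in either way, so the values depend on a counting rule that is not known here.

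Within the clusters, the ratio of miR-27 to miR-23 was above its whole control range in 3 of 4 high-fat libraries for the 23a cluster and in 2 of 4 for the 23b cluster, and neither difference passed the adjusted threshold. The ratio of mmu-miR-27a-3p to mmu-miR-23a-3p was 4.21, 4.75, 4.20, 4.73 and 4.97 in libraries 1 to 5 of the control diet and 3.92, 8.11, 5.87 and 6.51 in libraries 1 to 4 of the high-fat diet. High-fat library 1 was below all control libraries and the other 3 were above all of them. The log2 ratio was 2.19 ± 0.11 (SD, n = 5) and 2.56 ± 0.44 (SD, n = 4), a difference of 0.37 (exact permutation p = 0.103, adjusted p = 0.310). This difference was 0.57 without high-fat library 1, 0.22 without high-fat library 2, and 0.67 without high-fat libraries 1 and 3. The groups no longer overlap once library 1 is left out because it is the only high-fat library below the controls, so no p is read from those values.

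In the 23b cluster, mmu-miR-27b-3p over mmu-miR-23b-3p was 6.12, 6.03, 5.15, 6.94 and 5.12 in control libraries and 6.73, 9.39, 5.62 and 9.12 in high-fat libraries. High-fat libraries 2 and 4 were above all controls, and libraries 1 and 3 were within the control range. The log2 difference was 0.37 (2.54 ± 0.19, SD, n = 5, against 2.92 ± 0.36, SD, n = 4; exact permutation p = 0.0952, adjusted p = 0.310), and 0.67 without high-fat libraries 1 and 3, a description only, since both libraries inside the control range are then left out. The same libraries, 2 and 4, had the highest ratio in both clusters and the 2 lowest shares of leukocyte markers among the 9 libraries. The part of those markers in the ratios was not tested.

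mmu-miR-24-3p was compared with the miR-23 names in the same way. Against the sum of mmu-miR-23a-3p and mmu-miR-23b-3p it was at 0.732, 0.962, 0.595, 1.06 and 0.649 in control libraries and 0.810, 1.41, 0.972 and 1.37 in high-fat libraries. High-fat libraries 2 and 4 were again above every control. The log2 difference was 0.51 (-0.36 ± 0.36, SD, n = 5, against 0.15 ± 0.39, SD, n = 4; exact permutation p = 0.0873, adjusted p = 0.310), and it was 0.83, again as a description, without high-fat libraries 1 and 3. Against the sum of mmu-miR-27a-3p and mmu-miR-27b-3p, mmu-miR-24-3p had a log2 ratio of -2.74 ± 0.25 (SD, n = 5) and -2.60 ± 0.08 (SD, n = 4), and the groups overlapped (exact permutation p = 0.286, adjusted p = 0.429). The ratios that have a miR-23 name below the line share their counts with the miR-23 fold changes and are not separate evidence.

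**Figure D4:**
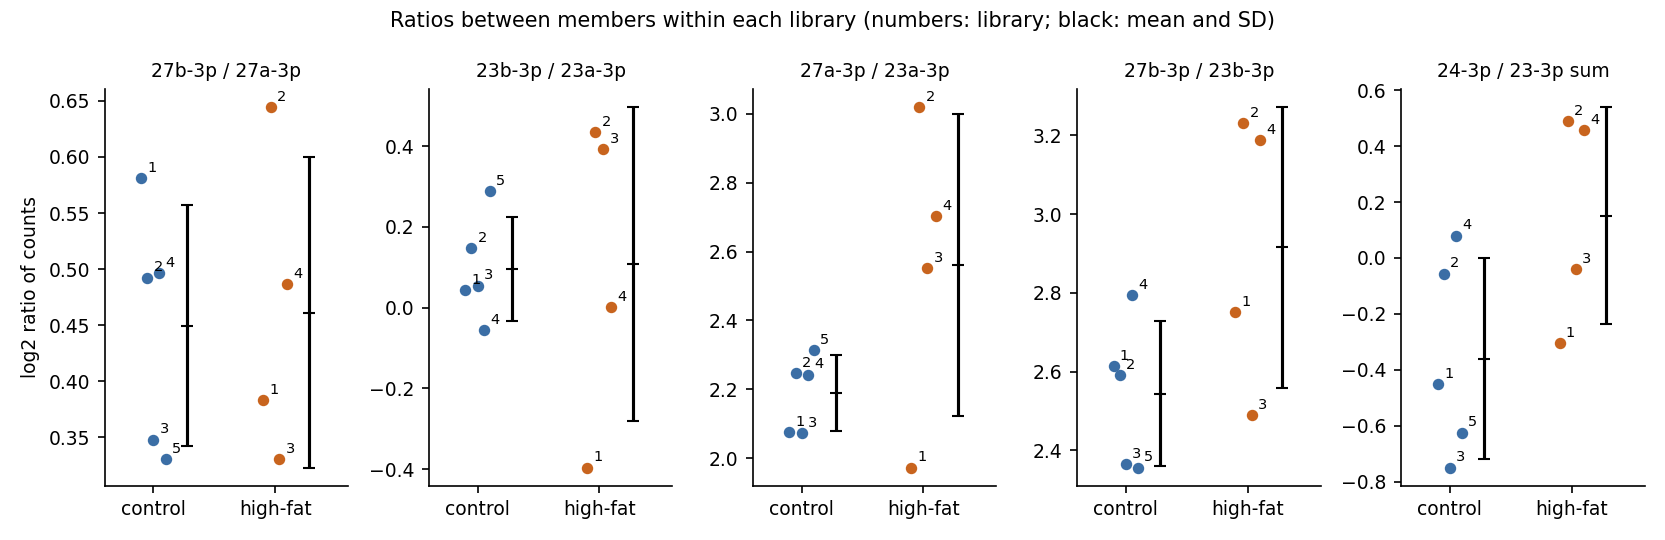
Log2 ratios of counts between members in each library, by diet, each panel on its own y axis; numbers beside the points are library numbers, and black marks are group means with SD bars. Ratios of miR-27 or miR-24 over miR-23 are highest in high-fat libraries 2 and 4, while mmu-miR-27b-3p over mmu-miR-27a-3p has the same mean in both groups to within its SD.

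The 3p arm exceeded the 5p arm in both miR-27 hairpins in every library, by at least 256-fold. The ratio of mmu-miR-27a-3p to mmu-miR-27a-5p was 895, 269, 735, 256 and 276 in libraries 1 to 5 of the control diet and 379, 2699, 1426 and 531 in libraries 1 to 4 of the high-fat diet. High-fat libraries 2 and 3 were above all controls, and libraries 1 and 4 were within the control range. The log2 ratio was 8.70 ± 0.89 (SD, n = 5) against 9.87 ± 1.30 (SD, n = 4), a difference of 1.17 (exact permutation p = 0.167, adjusted p = 0.375) that was 0.66 without high-fat library 2. For mmu-miR-27b-3p over mmu-miR-27b-5p the log2 ratio was 9.43 ± 0.39 (SD, n = 5) against 9.85 ± 0.62 (SD, n = 4; exact permutation p = 0.254, adjusted p = 0.429). In both hairpins the highest ratios, which rest on 19 to 69 counts of the 5p name, were in high-fat libraries 2 and 3.

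**Figure D5:**
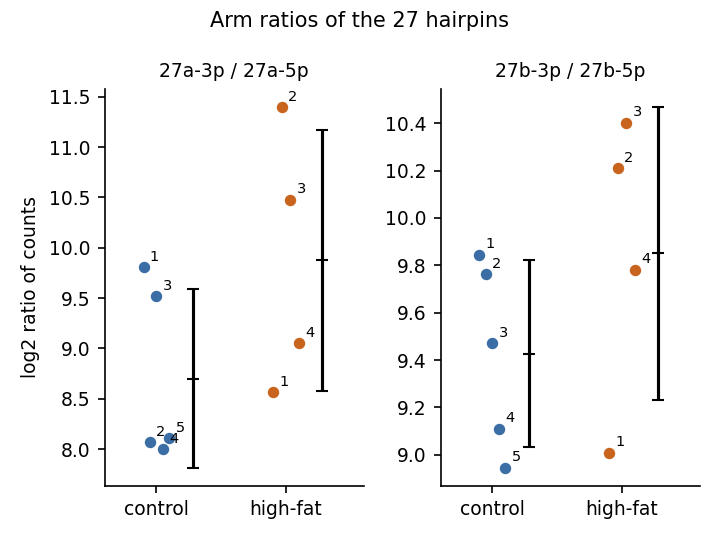
Log2 ratio of 3p to 5p counts for the miR-27a hairpin (left) and the miR-27b hairpin (right) in each library, by diet, each panel on its own y axis; numbers are library numbers, and black marks are group means with SD bars. High-fat libraries 2 and 3 have the highest ratio in both panels, and the groups overlap.

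The other products of the same hairpins were low. mmu-miR-24-1-5p, the 5p product of the 23b cluster's miR-24 hairpin, was at 23.8 ± 6.18 CPM (SD, n = 5) and 25.6 ± 5.38 CPM (SD, n = 4). mmu-miR-24-2-5p exceeded it 7.38-fold in control libraries and 6.81-fold in high-fat libraries, and from 2.90-fold to 11.0-fold in single libraries. So the 5p product that can be assigned to the 23a cluster was the higher one in the miR-24 hairpins. In the miR-27 hairpins the 5p products did not differ beyond their spread, with mmu-miR-27a-5p at 0.958 times mmu-miR-27b-5p. The 3p product of the 23b cluster was 1.37-fold the higher one there, with an uncertain split of reads. mmu-miR-23a-5p was at 16.4 ± 9.92 CPM (SD, n = 5) and 7.00 ± 3.64 CPM (SD, n = 4), from 11 to 28 counts per library, with a log2 fold change of -1.12 ± 0.47 (SE; limma adjusted p = 0.436, and among the names past the unadjusted threshold). Of the names read from the strand opposite the miR-24 hairpins, mmu-miR-3074-5p and mmu-miR-3074-1-3p had at most 4 counts in any library and mmu-miR-3074-2-3p had 0 in all, where a count of 0, read as up to 3 counts, allows up to 3.58 CPM in the smallest library and 0.770 CPM in the largest.

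mmu-miR-23b-5p was near the limit of detection and below the filter, so it was not among the 312 tested names. It had 0, 0, 1, 1 and 0 counts in libraries 1 to 5 of the control diet and 4, 7, 7 and 3 in libraries 1 to 4 of the high-fat diet. By observed CPM every high-fat library was above every control library, a separation also seen in 1.21% of the 828 detected names. The count of 0 in control library 5, read as up to 3 counts, allows up to 3.58 CPM. This is above the highest high-fat value, 3.46 CPM, so the separation from that library is not established. Summed over libraries, its counts were 2 of 8116910 on the control diet and 21 of 10161429 on the high-fat diet. The ratio of shares was 8.39, with an exact 95% interval of 2.05 to 73.8 that covers counting error only. Without the filter on low counts, its log2 fold change in limma-voom was 2.11 ± 0.55 (SE; adjusted p = 0.161). mmu-miR-23b-3p from the same hairpin had 51847 counts in all and lay lower, not higher, in 3 of the 4 high-fat libraries than in any control.

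Likeness between names was described by the SD over the 9 libraries of the log2 ratio of their counts, among the 311 other tested names; a small SD means that 2 names kept a steady ratio. The names share libraries and depth, so this is a description. mmu-miR-27a-3p was most like mmu-miR-146b-5p (0.10), mmu-miR-339-5p (0.11) and mmu-miR-27b-3p (0.11). mmu-miR-27b-3p was most like mmu-miR-146b-3p (0.11), mmu-miR-27a-3p (0.11) and mmu-miR-146b-5p (0.13). The miR-27 names thus ranked in each other's first 3 although they come from different chromosomes. Their counts may hold reads that fit both names, and the part of such reads in this likeness was not tested.

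Over all 9 libraries, the miR-23 names kept a less steady ratio to the miR-27 name of their own cluster, with an SD of 0.34 for the 23a cluster and 0.32 for the 23b cluster. These SDs pool both diets. Among control libraries the SD was 0.11 for the 23a cluster and 0.19 for the 23b cluster, and among high-fat libraries 0.44 and 0.36. For mmu-miR-27b-3p over mmu-miR-27a-3p it was 0.11 among control and 0.14 among high-fat libraries. For mmu-miR-23a-3p the nearest names were mmu-miR-425-3p (0.16), mmu-miR-361-5p (0.24) and mmu-miR-23b-3p (0.26), while its cluster mate mmu-miR-27a-3p ranked 24 and mmu-miR-24-3p ranked 111. For mmu-miR-23b-3p they were mmu-miR-672-5p (0.22), mmu-miR-423-3p (0.24) and mmu-miR-425-3p (0.24), with mmu-miR-27a-3p at rank 7, mmu-miR-23a-3p at rank 8 and its own cluster mate mmu-miR-27b-3p at rank 25. For mmu-miR-24-3p they were mmu-miR-101b-3p (0.16), mmu-miR-330-5p (0.18) and mmu-miR-27b-3p (0.19). So mmu-miR-24-3p, which both clusters encode, kept a steadier ratio to the miR-27 names than to the miR-23 names.

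miR-27 belongs to a wider set of miRNAs reported in fat-cell formation, of which 24 were listed, with mmu-miR-27a-3p and mmu-miR-27b-3p among them. Of these, 23 were tested, 10 with a log2 fold change above 0 and 13 below, with a median of -0.07. None was called, and 2 passed an unadjusted limma p below 0.05, 1 in each direction, against 10.3% of all tested names, a share near that of the list. These were mmu-miR-21a-5p, with a log2 fold change of -0.55 ± 0.17 (SE; limma adjusted p = 0.277), and mmu-miR-26b-5p, with 0.41 ± 0.15 (SE; limma adjusted p = 0.389), a miRNA hosted in a gene of the Ctdsp family. By the smallest p they were followed by mmu-miR-378a-3p at -0.24 ± 0.11 (SE; limma adjusted p = 0.534) and mmu-miR-210-3p at 0.31 ± 0.17 (SE; limma adjusted p = 0.621). mmu-miR-27a-3p, with a log2 fold change of -0.07, was itself the median of that list, and mmu-miR-27b-3p was at -0.05.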

How the data were processed

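Per the labels' protocols, the fat layer was rinsed in saline buffer and recovered by spinning before RNA extraction, and NEXTflex libraries were read on a HiSeq2500. cutadapt 1.9.1 and the build GRCm38 are named in the submitters' processing notes. For the aligner, the counter, the miRBase release and reads that fit several names, tools and rules were not given in the sources used here. Raw read counts of known miRNAs were deposited by the authors as 2059 rows for 1915 mature names, whole numbers with comma separators in 833 cells; because of the separators they were recorded under another unit, and limma-voom took the place of a count model. Commas were removed, and the highest row per name and library was kept. The 2 rows of mmu-miR-24-3p differed by at most 1 count.

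The members and lists were chosen with earlier results of these data known. A name was tested where 4 or more libraries reached 5.25 CPM, which is 10 counts at the median library, and its total reached 15 counts; the rest held 0.047% of counts. limma 3.58.1 in R 4.3.3 used trimmed-mean factors (30% of log ratios and 5% of levels) and diet as the only term. Its p-values are moderated and two-sided, and it was tested on simulated data. Ratios and their exact tests were computed in Python 3.11.15 with 0.5 counts added on each side. Dams are the replicates, and no library repeated another (chi-square over its degrees of freedom was 50.25 or more for each pair within a diet). Totals of 837817 to 3897109 counts give a floor (3 counts) of 3.58 to 0.770 CPM; intervals and floors cover counting error only, since PCR copies are not independent molecules. Batches and dates are not known here. The named miRNAs are the 8 members, the other products of the same or overlapping hairpins, the 3 names most like each 3p member, and, from the fat-cell list, the names with the smallest p in each direction. Replicate numbers 1 to 4 occur in both diets, with no stated link between dams. Alternatives were other scalings, no filter, limma-trend, library quality weights, summed rows, another pseudocount, a replicate block, each library left out, and high-fat libraries 1 and 3 left out.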

Additional observations from a re-analysis of the deposited data

How the results depend on the processing

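No member was called under any alternative. Of 329 recomputed values 296 kept their direction and their side of the threshold or, for counts of called names, stayed equal. For the ratios and the summed share, the replicate block could not pass the threshold, since its smallest exact sign-flip p is 0.125. In the other fits, too, a single ratio could not pass alone after adjustment across the 9. An unchanged side of the threshold is therefore no support for the ratios. The number of tested names called between diets, 0 with limma-voom and 32 at an unadjusted p below 0.05, was 4 without the filter, 2 with limma-trend, 2 with library quality weights and 3 with the replicate block, and ran from 0 to 4 when single libraries were left out, with 4 without control library 5. None of these was a member. Differences near 0 turned direction. When single libraries were left out, the log2 difference ran from -0.10 to 0.18 for mmu-miR-23b-3p over mmu-miR-23a-3p, from -0.050 to 0.073 for the 23b cluster over the 23a cluster and from -0.049 to 0.055 for mmu-miR-27b-3p over mmu-miR-27a-3p. The log2 fold change ran from -0.23 to 0.042 for mmu-miR-24-2-5p, from -0.035 to 0.21 for mmu-miR-24-3p, from -0.18 to 0.020 for mmu-miR-27a-3p and from -0.22 to 0.062 for mmu-miR-27b-3p, over the same fits. Without high-fat libraries 1 and 3 together, the differences of the 3 ratios were 0.12, 0.14 and 0.12, and the fold changes of the 4 names -0.35, 0.23, -0.0031 and 0.11. For mmu-miR-27a-5p over mmu-miR-27b-5p the mean log2 ratio was -0.06 in all libraries and 0.28 in control libraries alone. The cause was not tested. With one diet alone the order of the 5 pairs that passed kept its direction but cannot pass, since the smallest exact sign-flip p is then 0.0625 or 0.125. Same-numbered dams did not deviate together (correlations of 0.0621, -0.0755, 0.197 and -0.159, and 2 of 4 high-fat libraries matched their own number best); the replicate block turned the difference of mmu-miR-27b-3p over mmu-miR-27a-3p to -0.018. Depth limits mmu-miR-27a-5p, mmu-miR-27b-5p and mmu-miR-23b-5p, which rest on at most 89 counts per library.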
